A study of Mus musculus with 26 samples.

Results

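Semaphorins, plexins and neuropilins were followed across 8 subtypes of dorsal root ganglion neurons of mice aged 23 postnatal days or more. The genes were chosen by name: 20 semaphorins (Sema3 to Sema7 families), 9 plexins and 2 neuropilins, in all 31 of the 39017 genes counted. RNA of 26 libraries of sorted neurons was sequenced. Neurons from more than 1 mouse and sorting round went into each library, so p-values measure the spread between such pools. Nothing in the sources used here ties a library to single animals.

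Of the 5 A-fibre subtypes, proprioceptors (muscle sensors, 3 libraries, from thoracic ganglia alone) carried PVIRESCre with R26tdtomato(Ai14), a Cre-dependent red reporter. Aβ Field-LTMRs (3 libraries) and Aβ SA1-LTMRs (3 libraries), low-threshold touch receptors, both carried TrkCCreER and the allele Retf(GFP). Tamoxifen for Aβ Field-LTMRs was 2 mg/day on postnatal days 13 to 14 or 14 to 15. Aβ SA1-LTMR mice had it at 3 mg/day on day E12.5 of gestation. Aβ RA-LTMRs (5 libraries) carried Npy2r-GFP without tamoxifen. Aδ-LTMRs (3 libraries) carried TrkBCreER with Ai14, with 2 mg/day on embryonic days 12 to 13. The other 3 subtypes had 3 libraries each. C-LTMRs, unmyelinated touch receptors, carried ThCreER with Ai14 and had tamoxifen as for Aβ Field-LTMRs. Peptidergic nociceptors carried CGRP-GFP and nonpeptidergic nociceptors MrgD-EGFP, without tamoxifen. Reporter line and tamoxifen differ with subtype and cannot be told apart from it. The same holds for the thoracic origin of the proprioceptors.

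Semaphorins are secreted or membrane-bound guidance cues, first known for turning growing axons away. Plexins are their signalling receptors, and neuropilins bind most secreted class 3 semaphorins and hand the signal to class A plexins. Sema3e instead binds Plxnd1 directly, class 4 members mostly bind class B plexins, class 6 members bind class A plexins, and Sema7a, held on the membrane by a lipid anchor, binds Plxnc1 and integrins. In sensory ganglia these proteins are best known for steering axons during development.

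The promoters of 4 members are shown because Plxnc1 and Plxnd1 were highest in nociceptors, while Sema7a and Sema5b had large A-fibre excesses. They run from 250 bases before to 50 after the start in RefSeq (GRCm38.p6), 5′ to 3′ on the gene's strand, and 26 of the 31 members had an entry. Capitals mark GGGCGG on either strand, the GC box bound by Sp and Klf factors.
Plxnc1, chr10:94944796-94945095, minus strand: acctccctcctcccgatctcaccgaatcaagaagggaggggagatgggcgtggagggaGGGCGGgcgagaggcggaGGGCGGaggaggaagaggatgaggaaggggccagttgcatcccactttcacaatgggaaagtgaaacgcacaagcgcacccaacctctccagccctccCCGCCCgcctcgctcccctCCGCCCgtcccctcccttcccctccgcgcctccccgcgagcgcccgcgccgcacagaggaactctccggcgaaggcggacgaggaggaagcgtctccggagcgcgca
Plxnd1, chr6:115994956-115995255, minus strand: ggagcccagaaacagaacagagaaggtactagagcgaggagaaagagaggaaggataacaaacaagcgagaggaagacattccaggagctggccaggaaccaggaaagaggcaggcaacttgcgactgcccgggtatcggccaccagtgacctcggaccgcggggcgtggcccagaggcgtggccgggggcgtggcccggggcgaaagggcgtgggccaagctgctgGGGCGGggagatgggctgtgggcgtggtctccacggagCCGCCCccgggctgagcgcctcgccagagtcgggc
Sema7a, chr9:57939862-57940161, plus strand: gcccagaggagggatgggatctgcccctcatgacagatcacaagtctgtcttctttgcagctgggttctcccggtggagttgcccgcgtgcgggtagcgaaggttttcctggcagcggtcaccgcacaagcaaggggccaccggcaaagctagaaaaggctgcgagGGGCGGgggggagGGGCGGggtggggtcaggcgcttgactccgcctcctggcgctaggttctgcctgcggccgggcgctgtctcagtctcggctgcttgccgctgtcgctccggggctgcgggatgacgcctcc
Sema5b, chr16:35541112-35541411, plus strand: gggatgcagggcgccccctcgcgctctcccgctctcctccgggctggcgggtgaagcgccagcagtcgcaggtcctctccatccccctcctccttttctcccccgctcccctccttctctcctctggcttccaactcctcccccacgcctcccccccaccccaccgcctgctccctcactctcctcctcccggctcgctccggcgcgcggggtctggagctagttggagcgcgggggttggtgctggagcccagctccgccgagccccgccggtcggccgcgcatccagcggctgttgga
Plxnc1 held 4 such matches, Plxnd1 and Sema7a 2 each and Sema5b 0. GGGCGG on either strand was held by 35.7% of all 32851 mouse promoters listed there, and by 27 of the 37 entries of the members. The searches for TGTGGT, the core of RUNX sites, and TATAAA, the TATA box, on both strands gave no match in these 4 windows. TGTGGT was in 16.8% and TATAAA in 13.6% of all promoters. The C and G share was 69% in Plxnc1, 67% in Plxnd1, 67.3% in Sema7a and 73% in Sema5b, against a median of 52.7% over all promoters.

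Between 10706522 and 66309214 reads were counted per library, fewest for Aβ Field-LTMRs (library 2) and most for C-LTMRs (library 3). Of the genes behind the labels, Mrgprd, Calca, Th and Pvalb had their highest mean in nonpeptidergic nociceptors, peptidergic nociceptors, C-LTMRs and proprioceptors. Npy2r, whose reporter marked Aβ RA-LTMRs, averaged 20.4 CPM there (counts scaled to library size) and 52.9 CPM in peptidergic nociceptors. Ntrk2 (TrkB) was highest in Aδ-LTMRs (523 CPM), and Ntrk3 (TrkC) in Aβ Field-LTMRs (195 CPM) and Aβ SA1-LTMRs (194 CPM). Ret, whose GFP allele both of the latter carried, averaged 449 CPM in Aβ Field-LTMRs and 274 CPM in Aβ SA1-LTMRs. It was higher in C-LTMRs (1356 CPM), nonpeptidergic nociceptors (1231 CPM) and Aβ RA-LTMRs (565 CPM). Satellite glia, which wrap these neurons, were seen in every library through all 10 of their markers. The summed level of those markers was 899 to 4686 CPM in the A-fibre libraries and 388 to 1353 CPM in the other 9. It was highest in proprioceptors, at 2390 to 4686 CPM, and lowest in nonpeptidergic nociceptors, at 388 to 529 CPM. Endothelial markers summed to 36.4 to 61.1 CPM in Aδ-LTMRs and at most 20.5 CPM elsewhere, and macrophage markers to at most 7.21 CPM. Myelinating Schwann cell markers ran otherwise, at 2547 to 2887 CPM in C-LTMRs, 1768 to 1865 CPM in nonpeptidergic nociceptors and 370 to 408 CPM in proprioceptors. Most of this was Pmp22, at a mean of 2429 CPM in C-LTMRs. Pericyte and smooth muscle markers reached 1756 CPM in C-LTMRs, where Rgs5 averaged 1273 CPM, and fibroblast markers 161 CPM. Read lengths differed between libraries and mark Aδ-LTMR libraries 1 and 2, all Aβ SA1-LTMR libraries and Aβ RA-LTMR libraries 1 to 3. In pooled RNA, fewer expressing neurons and less RNA per neuron cannot be told apart.

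Nearly every member differed among the subtypes. Nonpeptidergic nociceptors had the fewest semaphorins at a mean of 1 RPKM or more (reads scaled to gene length and library size). Whether fewer of all genes reached that level there was not counted. Neuropilin RNA was low both there and in proprioceptors, at summed means of 1.22 and 3.14 RPKM. By edgeR's quasi-likelihood F test over the 8 subtypes, 30 of 31 members passed a Benjamini-Hochberg adjusted p of 0.05, against 78.3% of the 17411 genes tested, and all 31 were among those tested. The exception was Sema3a, the classic repellent of sensory axons (adjusted p = 0.0835), which did not exceed 0.256 RPKM in any library. Over the 28 pairs of subtypes, 431 of 868 member comparisons were called, that is past adjusted p of 0.05 with a log2 fold change of 1 or more in size. The 49.7% of member comparisons called stands beside 21.8% over all genes and pairs. Nonpeptidergic nociceptors differed from each of the other 7 subtypes in 21 to 27 members, where 24.8% to 35.5% of all genes were called. The fewest member differences, 5, were between Aβ RA-LTMRs and Aδ-LTMRs, where 11% of all genes were called.

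**Figure D1:**
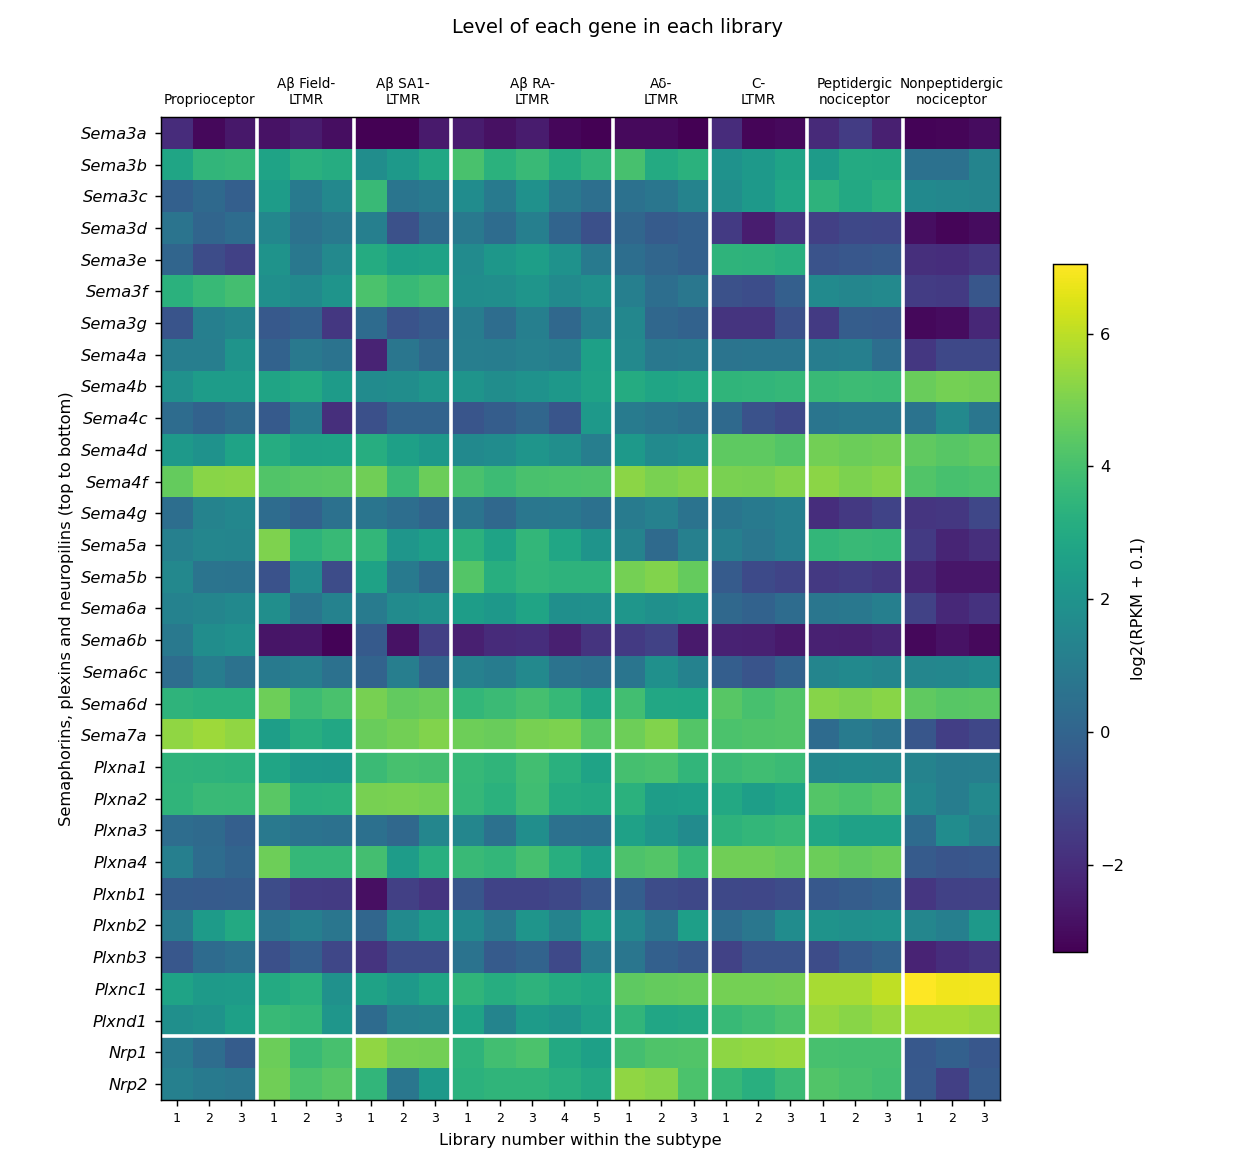
Level of the 31 genes (rows: semaphorins, plexins, neuropilins) in each of the 26 libraries (columns, grouped by subtype), as log2(RPKM + 0.1) by colour. In the 3 nonpeptidergic nociceptor columns Plxnc1 is brightest and Nrp1 and Nrp2 are dark, each below 1 RPKM.

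Both neuropilins and Plxna4 were at low levels in nonpeptidergic nociceptors. Nrp1, the co-receptor of Sema3a, had 0.615, 0.808 and 0.6 RPKM in nonpeptidergic nociceptors, and 38.8, 41.2 and 43.9 RPKM in C-LTMRs, the subtype with most. All 3 nonpeptidergic libraries lay below 6 of the other 7 subtypes, and overlapped proprioceptors, at 1.89, 1.2 and 0.712 RPKM. In the test on counts, Nrp1 was 0.92 ± 0.30 (SE) higher on the log2 scale in proprioceptors than in nonpeptidergic nociceptors (adjusted p = 0.0132), short of the fold threshold. Nrp2, which serves Sema3f, had 0.647, 0.293 and 0.686 RPKM in nonpeptidergic nociceptors and was called lower there than in each other subtype. Its nearest subtype was the proprioceptor, at 2.2, 1.81 and 1.61 RPKM (log2 fold change -1.80 nonpeptidergic over proprioceptor, adjusted p = 0.000229). Its highest mean was in Aδ-LTMRs, at 31 ± 12 RPKM (SD, n = 3), where library 3 (17.2 RPKM) stood below the other 2.

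Plxna4, the class A plexin that carries Sema3a signals in sensory axons, followed the neuropilins. It had 9.68, 7.97 and 8.47 CPM in nonpeptidergic nociceptors, where it was called lowest. Proprioceptors were nearest, with 37.9, 16.7 and 12.9 CPM, and the groups did not overlap (log2 fold change -1.36, adjusted p = 0.00186). Without proprioceptor library 1, the highest of these, the difference was -0.79 (adjusted p = 0.0448), short of the fold threshold. In C-LTMRs Plxna4 averaged 26.6 ± 1.5 RPKM, against 25 ± 1.2 RPKM in peptidergic nociceptors. Proprioceptors and nonpeptidergic nociceptors thus shared low levels of both neuropilins and Plxna4, while the other 6 subtypes each held at least 5.76 RPKM of all 3 on average.

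**Figure D2:**
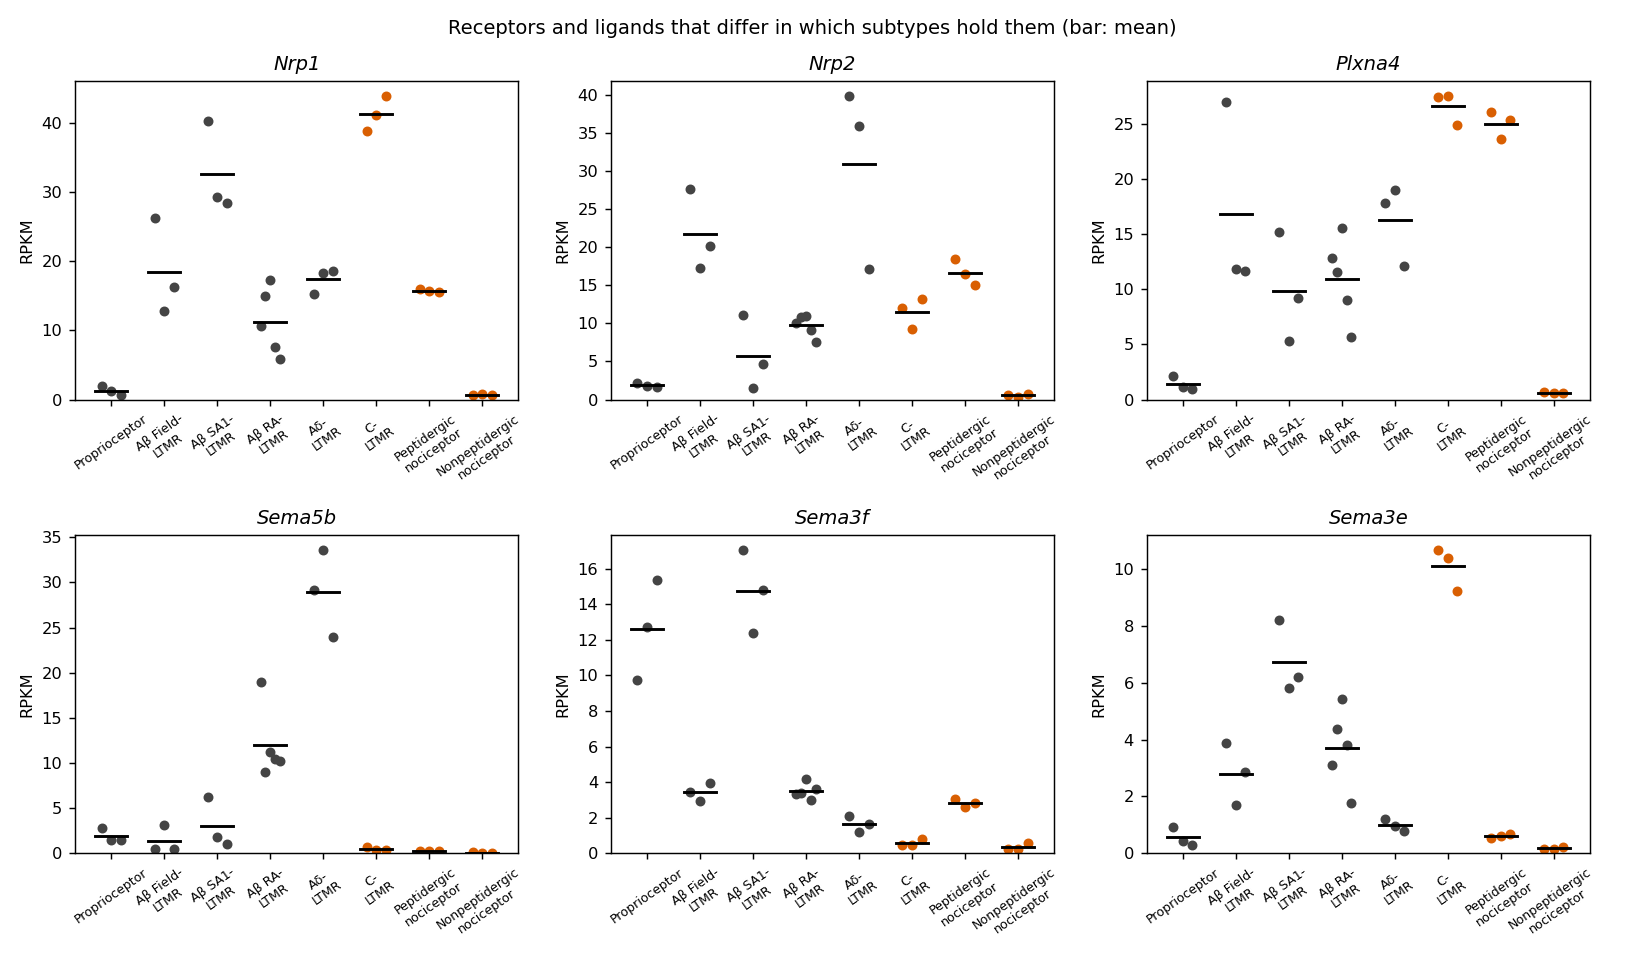
RPKM of Nrp1, Nrp2, Plxna4, Sema5b, Sema3f and Sema3e by subtype, linear axes from 0. Dots are libraries (dark grey: A-fibre, orange: C-LTMRs and nociceptors) and bars are means. The top row is low at both ends of the axis, and the bottom row peaks in Aδ-LTMRs, in Aβ SA1-LTMRs and proprioceptors, and in C-LTMRs.

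Of the other class A plexins, Plxna2, a receptor of Sema6a, was also called lowest in nonpeptidergic nociceptors. It had 41.9, 31.7 and 38.4 CPM there and 77.7 CPM or more in each of the other 23 libraries. Its nearest subtype was the C-LTMR (log2 fold change -1.27, adjusted p = 0.000142), and its highest mean was in Aβ SA1-LTMRs at 30.0 ± 0.85 RPKM. Plxna1 ranged from 2.15 ± 0.22 RPKM in nonpeptidergic nociceptors to 14.9 ± 1.6 RPKM in Aβ SA1-LTMRs. Plxna3, a receptor of Sema3f, was highest in C-LTMRs at 11.5 ± 1.2 RPKM and lowest in proprioceptors at 1.03 ± 0.22 RPKM.

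Among the members, Plxnc1 and Sema7a, receptor and ligand, ran in largely opposite order across the subtypes. Plxnc1 had 1379, 1207 and 1222 CPM in nonpeptidergic nociceptors and 453, 472 and 573 CPM in peptidergic nociceptors, the nearest subtype. These groups did not overlap, and Plxnc1 was enriched in nonpeptidergic nociceptors, that is called higher than in each other subtype (smallest log2 fold change 1.34, largest adjusted p = 9.25e-05). Per length it averaged 121 ± 10 RPKM there, the highest mean of any member in any subtype. Aδ-LTMRs, at 23.8 ± 1.3 RPKM, were called higher than the other 4 A-fibre subtypes, which averaged 5.46 to 9.04 RPKM. They did not pass the test against C-LTMRs (log2 difference 0.19 ± 0.24, Aδ-LTMR minus C-LTMR, adjusted p = 0.587).

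Sema7a had 1.78, 0.832 and 1.11 CPM in nonpeptidergic nociceptors, where it was called lowest, and 3.26, 5.7 and 4.34 CPM in peptidergic nociceptors, again the nearest (log2 fold change -1.82, adjusted p = 4.86e-06). In proprioceptors it reached 178, 136 and 120 CPM. No other subtype came as low as the nociceptors: C-LTMRs had 49.5, 52 and 48.6 CPM, above all Aβ Field-LTMR libraries at 21.1, 24.4 and 24.4 CPM. Over the 8 subtype means in RPKM, Spearman's rho between ligand and receptor was -0.86, the lowest of 23 ligand and receptor pairs (highest 0.76) and a description over points that share libraries and scaling. Sema7a exceeded Plxnc1 in RPKM in all 3 proprioceptor, all 3 Aβ SA1-LTMR, all 5 Aβ RA-LTMR, 2 of 3 Aδ-LTMR and 1 of 3 Aβ Field-LTMR libraries. It did so in 0 of the 9 C-LTMR and nociceptor libraries.

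**Figure D3:**
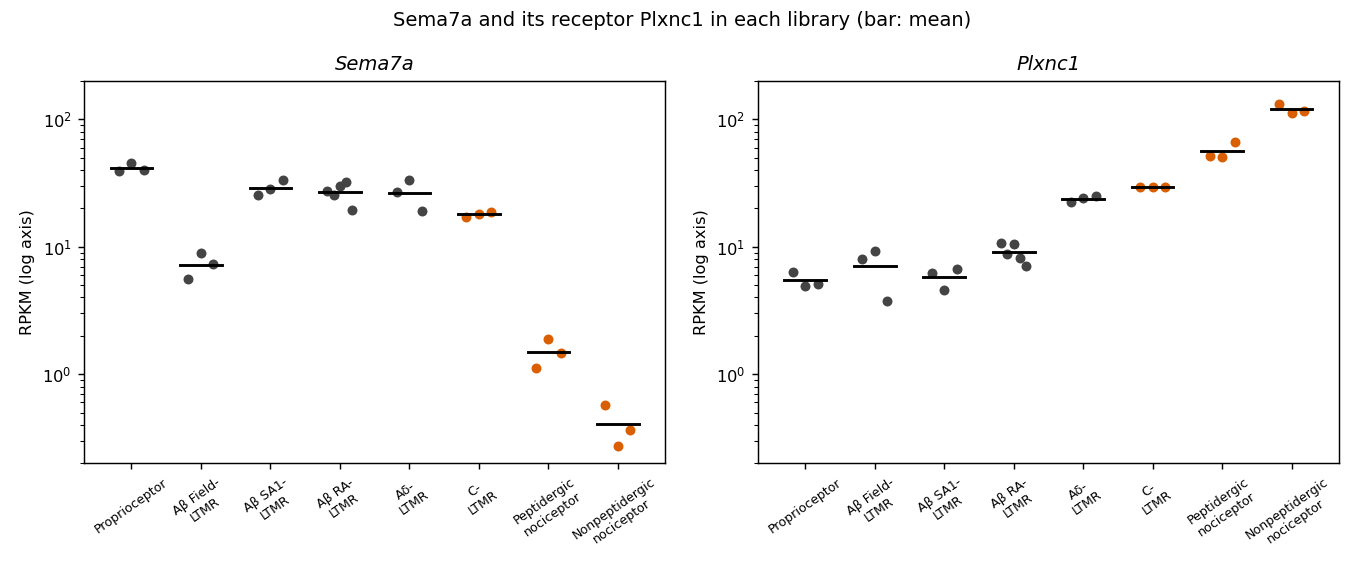
RPKM of Sema7a and Plxnc1 in each library, on log axes with the same limits. Dots are libraries (dark grey: A-fibre, orange: C-LTMRs and nociceptors) and bars are means. Sema7a is below 2 RPKM in both nociceptor subtypes, where Plxnc1 is above 50 RPKM.

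Plxnd1, the receptor of Sema3e, was also high in nociceptors. It had 81.8, 78.3 and 84.7 CPM in peptidergic nociceptors and 128, 132 and 125 CPM in nonpeptidergic nociceptors. The libraries did not overlap, but the difference missed the threshold (log2 fold change -0.65 ± 0.35, peptidergic over nonpeptidergic, adjusted p = 0.146). With the satellite glia score in the fit, Plxnd1 was called higher in nonpeptidergic nociceptors than in each other subtype. C-LTMRs had 24.5, 25.1 and 27.9 CPM. Its ligand Sema3e was highest in C-LTMRs at 117, 120 and 103 CPM and low in both nociceptors. Nonpeptidergic nociceptors had 2.41, 2.33 and 3.17 CPM of Sema3e, and peptidergic nociceptors, the nearest, 5.53, 7.1 and 7.1 CPM (log2 fold change -1.31, adjusted p = 0.00192). Sema3e and Plxnd1 were both at 1 RPKM or more on average in 4 of the 8 subtypes.

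The A-fibre subtypes were compared as the mean of their 5 fitted log2 levels against the mean of the other 3, so each subtype weighs equally on the log scale. Of the members, 15 were higher and 6 lower in A-fibre subtypes, against 15.6% and 12.9% of all genes tested, and 10 were not called. The median log2 fold change was 0.82 over the members and 0.02 over all genes. By class, 11 of 20 semaphorins were higher and 3 lower, while 3 of 9 plexins were higher and 3 lower. Of the neuropilins only Nrp2 was higher. Its subtype means averaged 88.4 CPM in A-fibre subtypes and 57.7 CPM in the others, but its library medians were 66.4 and 75.1 CPM. Peptidergic nociceptors (16.6 RPKM) and C-LTMRs (11.5 RPKM) exceeded Aβ RA-LTMRs (9.73 RPKM), Aβ SA1-LTMRs (5.76 RPKM) and proprioceptors (1.87 RPKM) in Nrp2. As the glial markers were also higher in the A-fibre libraries, each gene named here was also fitted with their mean log2 CPM as a covariate.

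**Figure D4:**
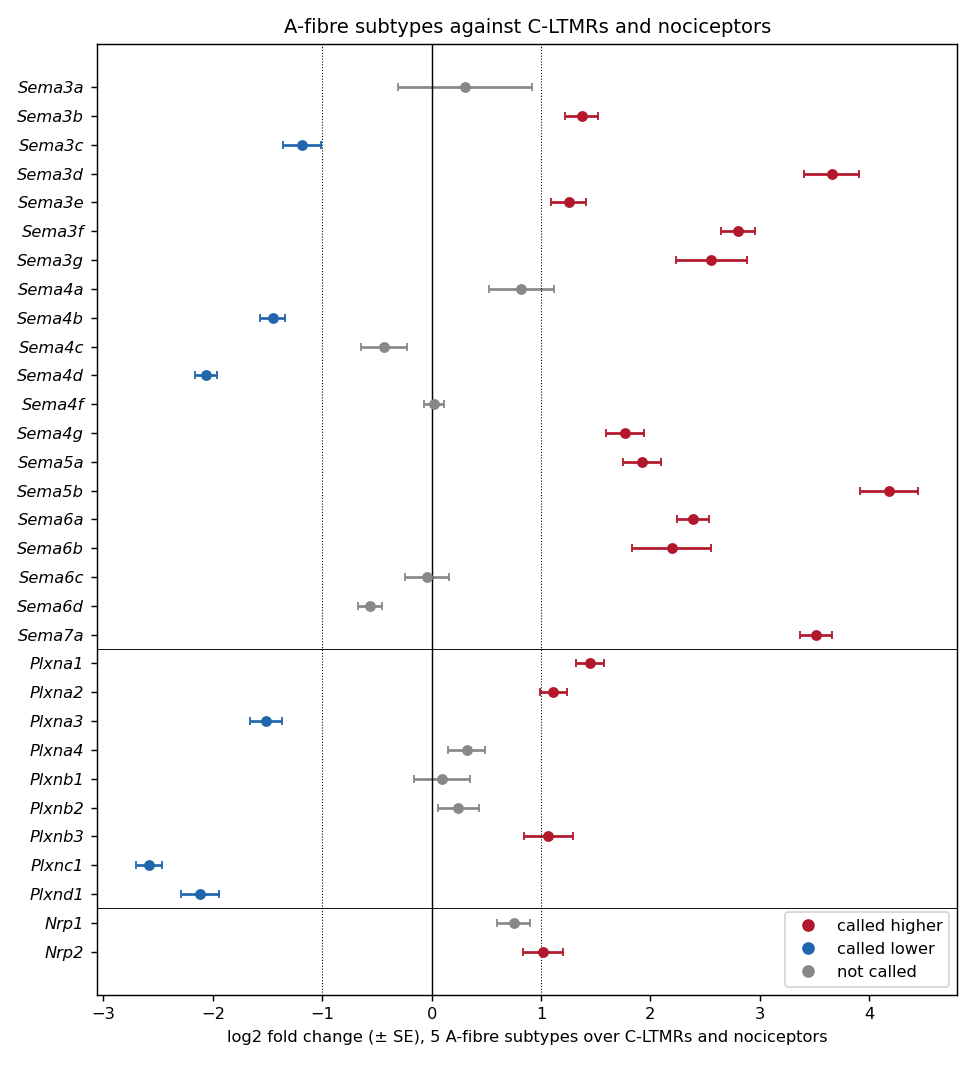
Log2 fold change (± SE, edgeR) of each member, mean log2 level of the A-fibre subtypes over that of C-LTMRs and nociceptors. Dotted lines mark -1 and 1, horizontal lines divide semaphorins, plexins and neuropilins, and colour gives the call. Sema5b is farthest right at 4.18, where A-fibre libraries lie above the others, and Plxnc1 farthest left at -2.58.

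Sema5b, a transmembrane cue known to repel axons and neurites, had the largest A-fibre excess. Its lowest, median and highest values were 1.51, 9.35 and 53.3 CPM in the 17 A-fibre libraries and 0.139, 0.519 and 1.03 CPM in the other 9. The sets did not overlap (log2 fold change 4.18 ± 0.27, adjusted p = 5.87e-13). The level was uneven among A-fibres. Aδ-LTMRs had 38.8, 53.3 and 53.3 CPM and Aβ RA-LTMRs 38, 20.9, 24.4, 31.8 and 37.7 CPM. No other library passed 9.35 CPM. Aβ RA-LTMRs did not pass the test against Aδ-LTMRs (log2 fold change -0.66 ± 0.35, adjusted p = 0.189).

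Sema3d, a secreted cue, had 6.53, 17.8 and 40.7 CPM (lowest, median, highest) in A-fibre libraries and 0.162, 2.37 and 4.5 CPM in the others, without overlap (log2 fold change 3.66 ± 0.25, adjusted p = 2.4e-12). Sema6a, a transmembrane ligand of Plxna2 and Plxna4, did not overlap either, with 14.5, 27.1 and 39.2 CPM in A-fibre libraries and 0.786, 6.38 and 11.4 CPM in the others (log2 fold change 2.39 ± 0.15, adjusted p = 3.97e-13). Both were also called lowest in nonpeptidergic nociceptors, with C-LTMRs nearest (log2 fold change -2.44 for Sema3d and -1.91 for Sema6a).

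For Sema7a the A-fibre excess was 3.52 ± 0.14 (adjusted p = 1.87e-16), with 21.1, 91.2 and 178 CPM (lowest, median, highest) in A-fibre libraries and 0.832, 4.34 and 52 CPM in the others. The overlap came from C-LTMRs and Aβ Field-LTMRs, as given above. Sema3f, a ligand of Nrp2, had 2.97, 13.3 and 56.5 CPM in A-fibre libraries and 0.74, 1.76 and 9.14 CPM in the others (log2 fold change 2.80 ± 0.16, adjusted p = 4.82e-14). It was held mainly by Aβ SA1-LTMRs, at 49.1, 56.5 and 47.6 CPM, and proprioceptors, at 44.6, 39.4 and 46.8 CPM. No other library passed 16.1 CPM. Sema3f was at 14.8 ± 2.3 RPKM in Aβ SA1-LTMRs, while its co-receptor Nrp2 stood there at 5.76 ± 4.8 RPKM.

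Sema3g had 1.05, 4.6 and 13.3 CPM in A-fibre libraries and 0.0713, 0.799 and 3.1 CPM in the others (log2 fold change 2.56 ± 0.32, adjusted p = 1.81e-07). With the satellite glia score in the fit its fold change was 0.71 (adjusted p = 0.391). Sema3b fell short in that fit too, at 0.32 (adjusted p = 0.449), where the fit without the score gave 1.37 ± 0.15 (adjusted p = 2.5e-08). Plxnb3 had the other sign, at -0.76 (adjusted p = 0.144) with the score and 1.07 ± 0.22 without it (adjusted p = 0.000228). Plxna2 had 0.92 with the score (adjusted p = 0.0277), short of the fold threshold, and 1.11 ± 0.12 without it. Sema5b, Sema3d, Sema7a, Sema3f, Sema6a and 6 further members kept their A-fibre calls with the score.

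**Figure D5:**
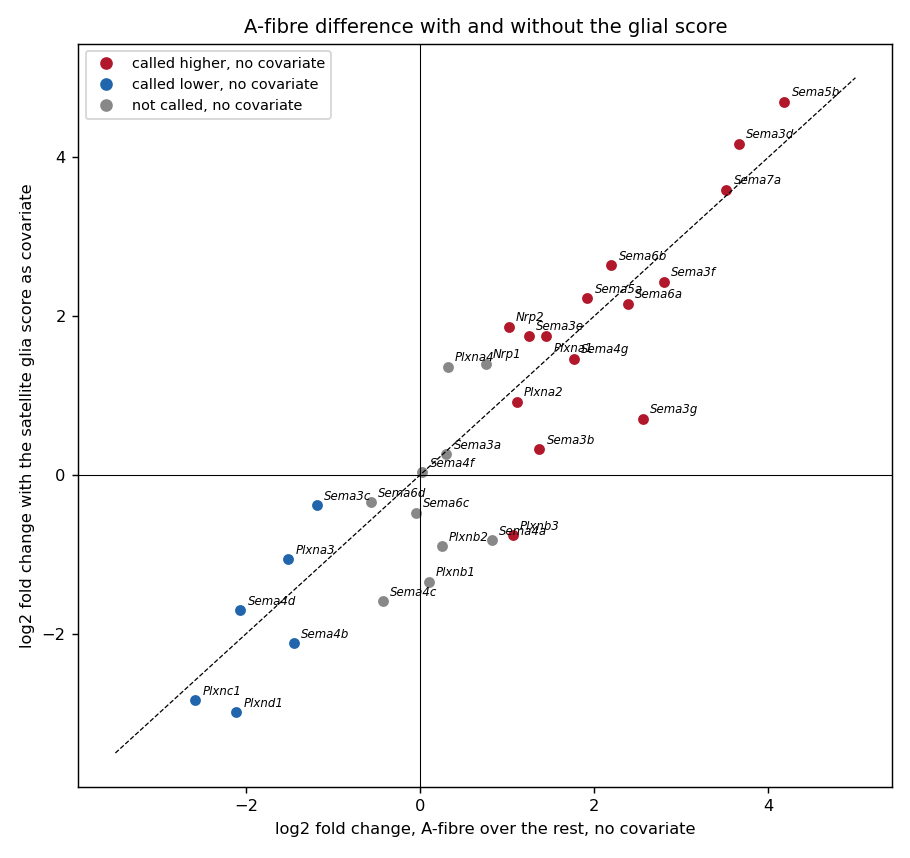
Log2 fold change of each member in A-fibre subtypes over the rest, without (horizontal axis) and with (vertical axis) the satellite glia score as a covariate; the dashed line marks equal values and colour gives the call without the score. Sema3g (0.71), Sema3b (0.32) and Plxnb3 (-0.76) lie below the line, and Sema5b, Sema3d and Sema7a above it.

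The remaining members higher in A-fibre subtypes were Sema6b (2.20), Sema5a (1.92), Sema4g (1.77), Plxna1 (1.45), Sema3e (1.25) and Nrp2 (1.02), all in log2 fold change. Plxna1 averaged 13.7 RPKM in C-LTMRs, below Aβ SA1-LTMRs (14.9) and Aδ-LTMRs (14.4). It was lower in Aβ RA-LTMRs (10.7), proprioceptors (10.3) and Aβ Field-LTMRs (5.32). Sema6b averaged 2.92 RPKM in proprioceptors and at most 0.329 RPKM in any other subtype. Its mean in Aβ Field-LTMRs (0.038) was below C-LTMRs (0.086) and peptidergic nociceptors (0.097). Sema3e was higher on the log scale alone: its linear group means averaged 38.3 CPM in A-fibre subtypes and 40.8 CPM in the others, with the highest mean in C-LTMRs. Sema4g averaged 2.10 ± 0.78 RPKM in proprioceptors, its highest subtype, and 0.236 ± 0.086 RPKM in peptidergic nociceptors, its lowest. C-LTMRs (1.80 RPKM) lay below Aδ-LTMRs (1.86) in Sema4g, but above Aβ RA-LTMRs (1.44), Aβ SA1-LTMRs (1.24) and Aβ Field-LTMRs (1.12). For Nrp2 the value was under 1 without any 1 of 7 libraries, down to 0.88 without Aβ SA1-LTMR library 1, 0.85 with read-length class and 0.97 with the endothelial score in the fit. It was also 0.99 with no filter and 0.85 on log2(RPKM + 0.1). Plxnb3 fell under 1 without nonpeptidergic nociceptor library 1 (0.98) or peptidergic nociceptor library 1 (0.99). Sema3e and Plxna2 fell to 0.95 and 0.99 with read-length class in the fit. Sema5a, a transmembrane cue with thrombospondin repeats, was highest in Aβ Field-LTMRs, where library 1 had 611 CPM and the others 291 and 247 CPM. Peptidergic nociceptors had 181, 213 and 189 CPM of it, and nonpeptidergic nociceptors 4.58, 2.15 and 3.25 CPM.

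Lower in A-fibre subtypes were Plxnc1, Plxnd1, Sema4d, Plxna3, Sema4b and Sema3c. Plxnc1 had 38.7, 87.7 and 340 CPM (lowest, median, highest) in A-fibre libraries and 249, 472 and 1379 CPM in the others (log2 fold change -2.58 ± 0.12, adjusted p = 1.21e-15), with overlap from Aδ-LTMRs. Plxnd1 had 5.55, 14.2 and 28.2 CPM in A-fibre libraries and 24.5, 81.8 and 132 CPM in the others (log2 fold change -2.11 ± 0.17, adjusted p = 9.03e-11). Here 1 Aβ Field-LTMR library reached into the range of C-LTMRs.

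Sema4d, a ligand of class B plexins, separated the sets cleanly. It had 13.5, 20.5 and 47.8 CPM in A-fibre libraries and 80.1, 105 and 125 CPM in the others (log2 fold change -2.06 ± 0.10, adjusted p = 3.43e-15). Sema4b separated them as well, with 10.7, 19.0 and 29.6 CPM in A-fibre libraries and 35.1, 44.4 and 101 CPM in the others (log2 fold change -1.45 ± 0.11, adjusted p = 3.21e-11). Plxna3 had 3.93, 8.14 and 15.6 CPM in A-fibre libraries and 6.56, 27.1 and 49.5 CPM in the others (log2 fold change -1.51 ± 0.15, adjusted p = 1.71e-09). Nonpeptidergic nociceptors, at 6.56, 11.3 and 10 CPM, lay within the A-fibre range of Plxna3. Sema3c had 3.31, 9.99 and 24.1 CPM in A-fibre libraries and 14.7, 20 and 42.8 CPM in the others (log2 fold change -1.18 ± 0.18, adjusted p = 2.62e-06), and -0.38 (adjusted p = 0.569) with the glia score.

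Called higher in 1 subtype than in each of the other 7 were 4 members, where 5.53% of all genes were so enriched in any subtype. Beside Plxnc1 these were Sema6b, Sema3c and Sema4b. Sema6b, a transmembrane ligand of Plxna4, had 7.66, 7.53 and 8.81 CPM in proprioceptors and at most 1.71 CPM in any other library, an Aβ SA1-LTMR one (smallest log2 fold change 3.13, adjusted p = 0.000464). With the glia score in the fit, highest in proprioceptors itself, it was 3.81 (adjusted p = 0.0933). In RPKM Sema6b averaged 2.92 in proprioceptors, while its receptor Plxna4 averaged 1.41 RPKM there.

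Sema4b had 88.2, 101 and 95.2 CPM in nonpeptidergic nociceptors and 42.5, 47.3 and 44.4 CPM in peptidergic nociceptors, the nearest, without overlap (log2 fold change 1.08, adjusted p = 0.00057). Under DESeq2 size factors or DESeq2 tests the log2 fold change was 0.999, just under the threshold. With no filter it was 0.990 and on log2(RPKM + 1) 0.983, so the call ended there too. Sema3c, a secreted cue that also acts on vessels, had 42.8, 37.6 and 42.5 CPM in peptidergic nociceptors and 19.1, 20.1 and 16.9 CPM in Aβ Field-LTMRs, the nearest (log2 fold change 1.13, largest adjusted p = 0.0276). That call ended without peptidergic library 1 (adjusted p = 0.0768) or 3 (0.0754), C-LTMR library 1 (0.131) or 2 (0.130), or Aβ Field-LTMR library 3 (0.0842). It also ended with the glia score (0.0980) or the endothelial score (0.546) in the fit.

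Called lower in 1 subtype than in each of the other 7 were 13 members, where 9.18% of all genes were so placed in any subtype. All but 1 were lowest in nonpeptidergic nociceptors, which also had the lowest glial marker level. Of the 1599 genes so placed in any subtype, 1132 were lowest there too, which is 6.5% of all genes tested. The exception was Sema3c in proprioceptors, at 3.31, 4.47 and 3.72 CPM against 9.99, 7.32, 11.2, 7.95 and 5.56 CPM in Aβ RA-LTMRs (log2 fold change -1.13, adjusted p = 0.0195). It ended without proprioceptor library 1 (-1.09, adjusted p = 0.0569) or 3 (-1.11, adjusted p = 0.0806), Aβ RA-LTMR library 3 (adjusted p = 0.0505) or Aβ SA1-LTMR library 1 (-0.78, adjusted p = 0.0443). With the glia score it was -0.14 (adjusted p = 0.959).

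The 12 lowest in nonpeptidergic nociceptors were Sema3b, Sema3d, Sema3e, Sema3g, Sema4a, Sema5a, Sema6a, Sema7a, Plxna2, Plxna4, Plxnb3 and Nrp2. Sema5a showed the widest gap, with 4.58, 2.15 and 3.25 CPM in nonpeptidergic nociceptors and 33.1, 26.3 and 32 CPM in C-LTMRs, the nearest (log2 fold change -3.19, adjusted p = 6.73e-08). Sema3b had 3.28, 3.42 and 5.7 CPM in nonpeptidergic nociceptors and 8.82, 11.2 and 13.9 CPM in C-LTMRs (log2 fold change -1.45, adjusted p = 0.000355). Sema3g had 0.0713, 0.116 and 0.514 CPM there and 0.794, 0.799 and 1.82 CPM in C-LTMRs (log2 fold change -2.25, adjusted p = 0.00649). The Sema3g call ended without C-LTMR library 3 (-1.72, adjusted p = 0.0602).

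Sema4a, a class 4 cue also known in immune cells, had 0.339, 0.647 and 0.514 CPM in nonpeptidergic nociceptors and 0.107, 2.96 and 2.42 CPM in Aβ SA1-LTMRs, the nearest (log2 fold change -1.87, adjusted p = 0.0134). The ranges overlap through Aβ SA1-LTMR library 1. The call ended without nonpeptidergic nociceptor library 1 (-1.64, adjusted p = 0.0619) or Aβ SA1-LTMR library 2 (-1.41, adjusted p = 0.0684). Plxnb3 had 0.588, 0.971 and 1.26 CPM in nonpeptidergic nociceptors and 1.88, 2.75 and 2.74 CPM in C-LTMRs (log2 fold change -1.39, adjusted p = 0.0145). It also ended without nonpeptidergic nociceptor library 1 (-1.14, adjusted p = 0.0834). With read-length class in the fit the calls of Sema4a (adjusted p = 0.0625) and Plxnb3 (0.0583) ended, as did Sema4a with the endothelial score (0.0569). On log2(RPKM + 0.1) those of Sema3c, Sema3d, Sema3g, Sema4a, Plxna4 and Plxnb3 ended. On log2(RPKM + 1) Sema3e, Sema6a, Sema7a and Nrp2 were lost as well. With the glia score 7 of the 13 calls were kept. Those of Sema3b (-0.24), Sema3g (-0.35), Plxna2 (-1.08) and Sema3c were not. For Sema4a (0.64) and Plxnb3 (1.39), also lost, the largest log2 fold change against any of the other 7 subtypes was above 0. The subtype that gave it may differ from the nearest one without the score.

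Of the 10 members called in neither direction, Sema4f and Sema6d were abundant everywhere. Sema4f, a transmembrane cue of neurons and glia, averaged 16.4 to 35.1 RPKM over the subtypes, with an A-fibre log2 difference of 0.02 ± 0.09. Sema6d, which binds Plxna1, averaged 9.76 to 35.1 RPKM, highest in peptidergic nociceptors. Its log2 fold change of -0.57 ± 0.11 passed adjusted p (8.01e-05) but not the fold threshold. Nrp1 and Plxna4 ranged widely within both sets of subtypes, as above, and were called higher in A-fibre subtypes with the glia score (1.40 and 1.36). With that score Sema4c was called lower (-1.59, adjusted p = 0.0191). Among libraries with reads of 15 to 50 bases Sema4a had a log2 fold change of 1.16. That setting left out all Aβ SA1-LTMRs, the A-fibre subtype with the lowest mean of Sema4a (0.897 RPKM). It also left out Aδ-LTMR libraries 1 and 2 and Aβ RA-LTMR libraries 1 to 3. Mean RPKM of Sema4a ran from 0.322 in nonpeptidergic nociceptors to 2.83 in Aβ RA-LTMRs, with an A-fibre log2 fold change of 0.82 ± 0.30 (adjusted p = 0.0204). Sema4c and Sema6c both ran from C-LTMRs (0.649 and 0.725 RPKM) to nonpeptidergic nociceptors (1.95 and 2.84 RPKM). Plxnb2 ran from 1.73 RPKM in Aβ Field-LTMRs to 4.85 RPKM in proprioceptors, but on CPM from 4.87 in nonpeptidergic nociceptors to 17.3 in peptidergic nociceptors. Plxnb1, a receptor of Sema4d, ran from 0.176 RPKM in Aβ SA1-LTMRs to 0.731 RPKM in peptidergic nociceptors, and was highest in proprioceptors on CPM. Sema3a did not exceed a mean of 0.16 RPKM, in peptidergic nociceptors. Sema4d averaged 3.15 RPKM or more in every subtype. Of its plexin receptors Plxnb1 and Plxnb2, Plxnb2 had the higher mean RPKM in each subtype.

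Counting members at a mean of 1 RPKM or more, nonpeptidergic nociceptors held 8 of the 20 semaphorins, 6 of 9 plexins and 0 of 2 neuropilins. The share of all genes at that level in each subtype was not counted, so these counts may not be particular to the members. Aβ RA-LTMRs, with most, held 18 semaphorins, 8 plexins and both neuropilins. The other subtypes held 12 to 17 semaphorins. Summed plexin RPKM was nonetheless highest in nonpeptidergic nociceptors, at 179, mostly Plxnc1, and lowest in proprioceptors, at 41.3. Of 23 known ligand and receptor pairs, ligand and receptor had their highest mean RPKM in the same subtype in 2, Sema4d with Plxnb1 and Sema4g with Plxnb2. On CPM these matches were lost and another 2 appeared, Sema4a with Plxnb1 and Sema4d with Plxnb2, since 6 of the 31 members changed their highest subtype with the scale.

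Some members are neighbours in the genome. Sema3a, Sema3c, Sema3d and Sema3e lie within 5.35 Mb of mouse chromosome 5 (mm10, GENCODE M21), with their highest mean CPM in peptidergic nociceptors (both Sema3a and Sema3c), Aβ Field-LTMRs (Sema3d) and C-LTMRs (Sema3e). Sema3b (chromosome 9, 107597674 to 107609229) and Sema3f (107681500 to 107710475), both on the minus strand, are 72.3 kb apart. Sema3b had its highest mean in Aβ RA-LTMRs and Sema3f in Aβ SA1-LTMRs, where it did not pass the test against proprioceptors (adjusted p = 0.548). Plxnc1 spans 94790866 to 94944835 of chromosome 10 and Sema7a 57940112 to 57962865 of chromosome 9. Genes overlapping a member on either strand had at most 3.39% of its total count, for D430040D24Rik at Sema4c. Strand use in counting is not given in the sources used here.

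Partners of the pathway were taken from 3 lists. Of 10 co-receptors and surface partners, 4 were higher and 2 lower in A-fibre subtypes, against 15.6% and 12.9% of all genes tested. Their median log2 fold change was 0.21. The contactin Cntn1 (2.59), the adhesion molecule Nrcam (1.88) and Cd72, a Sema4d receptor of B cells (1.75), were higher. L1cam, which joins Nrp1 in Sema3a reception, was lower (-1.19, adjusted p = 5.37e-12), as was its relative Chl1 (-1.05), although Chl1 had its highest mean in Aβ Field-LTMRs (315 CPM). With the glia score L1cam fell just short of the fold threshold (-0.97, adjusted p = 0.00152), and Chl1 passed neither threshold (-0.97, adjusted p = 0.146). Cd72 lost its call too (0.67, adjusted p = 0.811), while Cntn1 and Nrcam kept theirs. Erbb2, the other gene called higher (1.08), had -0.53 with the score (adjusted p = 0.663). Cd72 stood at 1.03 CPM or less in A-fibre libraries and 0.253 CPM or less in the others.

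Of 36 gene entries of plexin effectors, 6 were higher and 3 lower, with a median of -0.04, where 15.6% and 12.9% of all genes were higher and lower. Rnd1 (4.5) and Rnd2 (2.41), which bind plexins, and Sh3bp1 (2.33), a Rac regulator, were higher in A-fibre subtypes. Levels of Rnd1 were low, at most 2.06 CPM in A-fibre libraries and 0.078 CPM in the others, and at most 0.806 RPKM in any library. Sh3bp1 was low too, at most 2.50 CPM in A-fibre libraries and 0.459 CPM in the others. Rras, a GTPase that plexins inactivate, was lower (-3.02, adjusted p = 3.4e-14), as were the plexin-bound oxidase Mical1 (-1.39) and Crmp1 (-1.01), whose call ended with the glia score (-0.68) and the endothelial score (-0.99). Of 8 ligands and receptors of the VEGF family, which share the neuropilins, Pgf (3.68) and Vegfc (2.40) were higher and Figf (-1.61) lower. Endothelial markers were highest in Aδ-LTMRs, as was Vegfc, whose value with the endothelial score in the fit was 2.53 (adjusted p = 0.00166). With the glia score Vegfc (1.66, adjusted p = 0.467) and Figf (0.59, adjusted p = 0.665) were not called, and Pgf was (2.66).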

How the data were processed

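Per the labels' protocols, NuGEN amplification of RNA from sorted neurons preceded TruSeq library preparation. The authors deposited raw read counts per gene for 26 libraries, and RPKM values per gene, which were used for levels between genes. How the RPKM lengths and read totals were set is not given in the sources used here. The deposited log2 (rlog) table was not used. Fractions of reads mapped and exonic, deposited by the authors for each library, were used to look for batches. Named in the submitters' processing notes are FastQC 0.11.3, STAR, Cuffdiff, HTSeq 0.6.1, DESeq2 1.14.1 and mm10.

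Counts were tested with edgeR 4.0.16 in R 4.3.3: filterByExpr kept 17411 of 39017 genes, libraries were scaled by TMM, and robust quasi-likelihood fits had 1 mean per subtype. CPM are counts scaled to library size with those factors. Adjusted p-values are Benjamini-Hochberg values over all genes tested. A call needed an adjusted p below 0.05 and a log2 fold change of 1 or more in size. In each refit an enriched member has the smallest, and a lowest member the largest, log2 fold change against the other subtypes. The adjusted p beside it is the largest of those comparisons. Subtypes that give these values can differ between refits. SE is the log2 fold change over the square root of F. Limits on precision are counting error and the spread of 3 or 5 libraries. Values per library and full statistics go to members enriched or lowest in a subtype and to the 6 with the largest fold change in each direction. The edgeR fit was tested on simulated data. Alternatives were DESeq2 1.42.0, limma 3.58.1 on log2(RPKM + 0.1) or log2(RPKM + 1), other filters and scaling, covariates, a replicate block and libraries left out. Members and lists were chosen with earlier results of these data known.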

Additional observations from a re-analysis of the deposited data

Results flagged for a closer look

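Of the 31 members, 1 had a library far from the rest of its group among the 5 Aβ RA-LTMR libraries, the only group large enough to examine. Sema4c, a transmembrane ligand of Plxnb2, stood at 4.56 CPM in Aβ RA-LTMR library 5, where the other 4 libraries had 1.71 to 2.13 CPM. The gap was 0.850 of the group's range, above the limit of 0.71 for 5 samples. Chance alone marks about 1 in 20 such groups.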

How the results depend on the processing

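Of 104 counts under alternatives that leave out no single library, 97 stayed within 1.5 times the value given. The members lowest in 1 subtype numbered 8 with the satellite glia score and 8 on log2(RPKM + 0.1), with or without a filter, and 3 on log2(RPKM + 1), against 13. Members higher in A-fibre subtypes numbered 5 on log2(RPKM + 1), against 15. Pathway genes numbered 2 lower with the glia score and 6 higher on log2(RPKM + 1), against 6 and 12. The cause was not tested. Leaving out 1 library gave 30 to 31 members that differ among subtypes, 14 to 15 higher and 6 to 6 lower in A-fibre subtypes, 3 to 5 enriched, 11 to 14 lowest, 420 to 439 calls over pairs, and 10 to 12 higher and 4 to 7 lower pathway genes. Among A-fibre log2 fold changes near 0 or lost with a score, the sign turned for Sema4a (-0.82), Plxnb1 (-1.34), Plxnb2 (-0.90) and Plxnb3 (-0.76) with the glia score. In that fit the largest log2 fold change of nonpeptidergic nociceptors against any other subtype was above 0 for Sema4a (0.64) and Plxnb3 (1.39). Sema3a had -2.02 with read-length class, -1.40 with reads of 15 to 50 bases only and -0.82 without Aδ-LTMR libraries 1 and 2. The last pair of settings was chosen after seeing the data, and reads of 15 to 50 bases left no Aβ SA1-LTMR library. On log2(RPKM + 0.1), filtered or not, Sema3a had -0.27, Sema4f -0.17, Plxnb1 -0.14 and Plxnb2 -0.0013, and on log2(RPKM + 1) Sema3a had -0.050, Sema4f -0.17, Plxna4 -0.15 and Plxnb1 -0.034. Sema6c had 0.0027 with the endothelial score and 0.0033 with reads of 15 to 50 bases. Without any 1 library, Sema3a ranged over -0.70 to 0.43, Plxnb1 over -0.064 to 0.20, Sema4f over -0.032 to 0.065 and Sema6c over -0.19 to 0.030. The median over all genes was -0.15 on log2(RPKM + 0.1). With the replicate block the counts were 30, 15, 6, 4, 13, 424, 12 and 5, in the order above, and Sema4f had -0.017. Libraries of the same number did not pair: over 84 pairs r had a median of 0.0015, 4 were above 0.1, and 8 of 26 libraries matched their own number best. Depth limits Sema3a, Rnd1 and Vegfc, at or near 1 CPM or less.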
